A study of Homo sapiens with 12 samples.

Results

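Expression of 10 genes of the extracellular matrix was followed in human embryonic stem cells after oligonucleotides against LINE1 RNA: COL1A1, COL1A2, COL4A1, COL4A2, COL5A1, COL6A3, LAMB1, LAMC1, FN1 and SPARC. They were taken by symbol from the raw count table, in which all 10 are present among 53712 named genes, and all 10 passed the filter on low counts that left 17228 genes to test. The cells are H9, an established human embryonic stem cell line, grown in RSeT, a medium sold for the naive state of pluripotency. Some cultures received ASO-L1, oligos antisense to LINE1, a family of mobile elements whose RNA these cells transcribe; further cultures received SO-L1, oligos of the sense orientation, and the controls received ASO-Ctr, antisense oligos with no intended target. All groups had 25 nM of oligos and then 10 nM DZNep and 5 nM TSA, which act on histone methylation and histone deacetylation, so the controls were drug-treated too. In every group 0.7 uM trans-ISRIB, 5 uM emricasan and 10 uM Y-27632 were present until 24 h, and cells were harvested at 48 h without sorting for transfected cells.

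Each group has 4 libraries, numbered 1 to 4, of directional poly(A) RNA. Nothing in the labels says whether they came from separate cultures, so p-values measure the spread between these libraries, which may be technical. Total counts lay between 20367989 and 32180891 per library. Libraries of numbers 1 and 2 stood apart from those of numbers 3 and 4 in every group, and libraries deviated together within 1 and 2 and within 3 and 4, whether or not they had the same number. For this reason values within each pair of numbers, and a fit with the number as a block, which also removes this split, are given where they differ from the pooled value. All 8 markers of pluripotent cells were measured and summed to between 6201 and 6769 CPM (counts scaled to the size of the library) in ASO-L1 libraries, between 6725 and 7273 CPM in SO-L1 libraries and between 6917 and 7529 CPM in ASO-Ctr libraries. LINE1 RNA itself is not counted in the table, so the depletion was not analysed here.

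Collagens are built from 3 chains wound into a helix. Type I collagen, the fibrous collagen of connective tissue, joins COL1A1 and COL1A2 chains, and COL5A1 belongs to type V collagen, which sits inside such fibres and limits their width. COL4A1 and COL4A2 make type IV collagen, the network of basement membranes, and COL6A3 is a chain of the beaded filaments of type VI collagen. LAMB1 and LAMC1 are the beta and gamma chains shared by the laminins that early embryonic and pluripotent cells lay down. FN1 encodes fibronectin, which links matrix to integrins, and SPARC encodes a secreted glycoprotein that binds collagen and calcium and affects collagen assembly.

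Levels were compared between genes only per length, as CPM per kilobase of exon in the GENCODE v29 annotation, which need not be the annotation used for counting. On this scale SPARC stood first, at 98.4 ± 11.7 in ASO-L1 libraries, 67.5 ± 1.66 in SO-L1 libraries and 63.6 ± 3.20 in ASO-Ctr libraries (SD, n = 4 each, as in every mean below). In ASO-Ctr libraries it was followed by COL1A2 (31.1 ± 4.39), FN1 (27.6 ± 0.977), LAMC1 (25.8 ± 1.58) and LAMB1 (25.4 ± 3.07), and the library values of each of these overlapped those of the next. COL1A1 (9.87 ± 3.0) and COL4A1 (9.42 ± 0.831 CPM per kilobase) came next and overlapped as well, then COL4A2 (4.87 ± 0.261), COL5A1 (1.04 ± 0.191) and COL6A3 (0.324 ± 0.135). In ASO-L1 libraries COL1A1 lay between 14.1 and 20.5 CPM per kilobase and no longer overlapped COL4A1, which lay between 7.48 and 9.05.

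**Figure D1:**
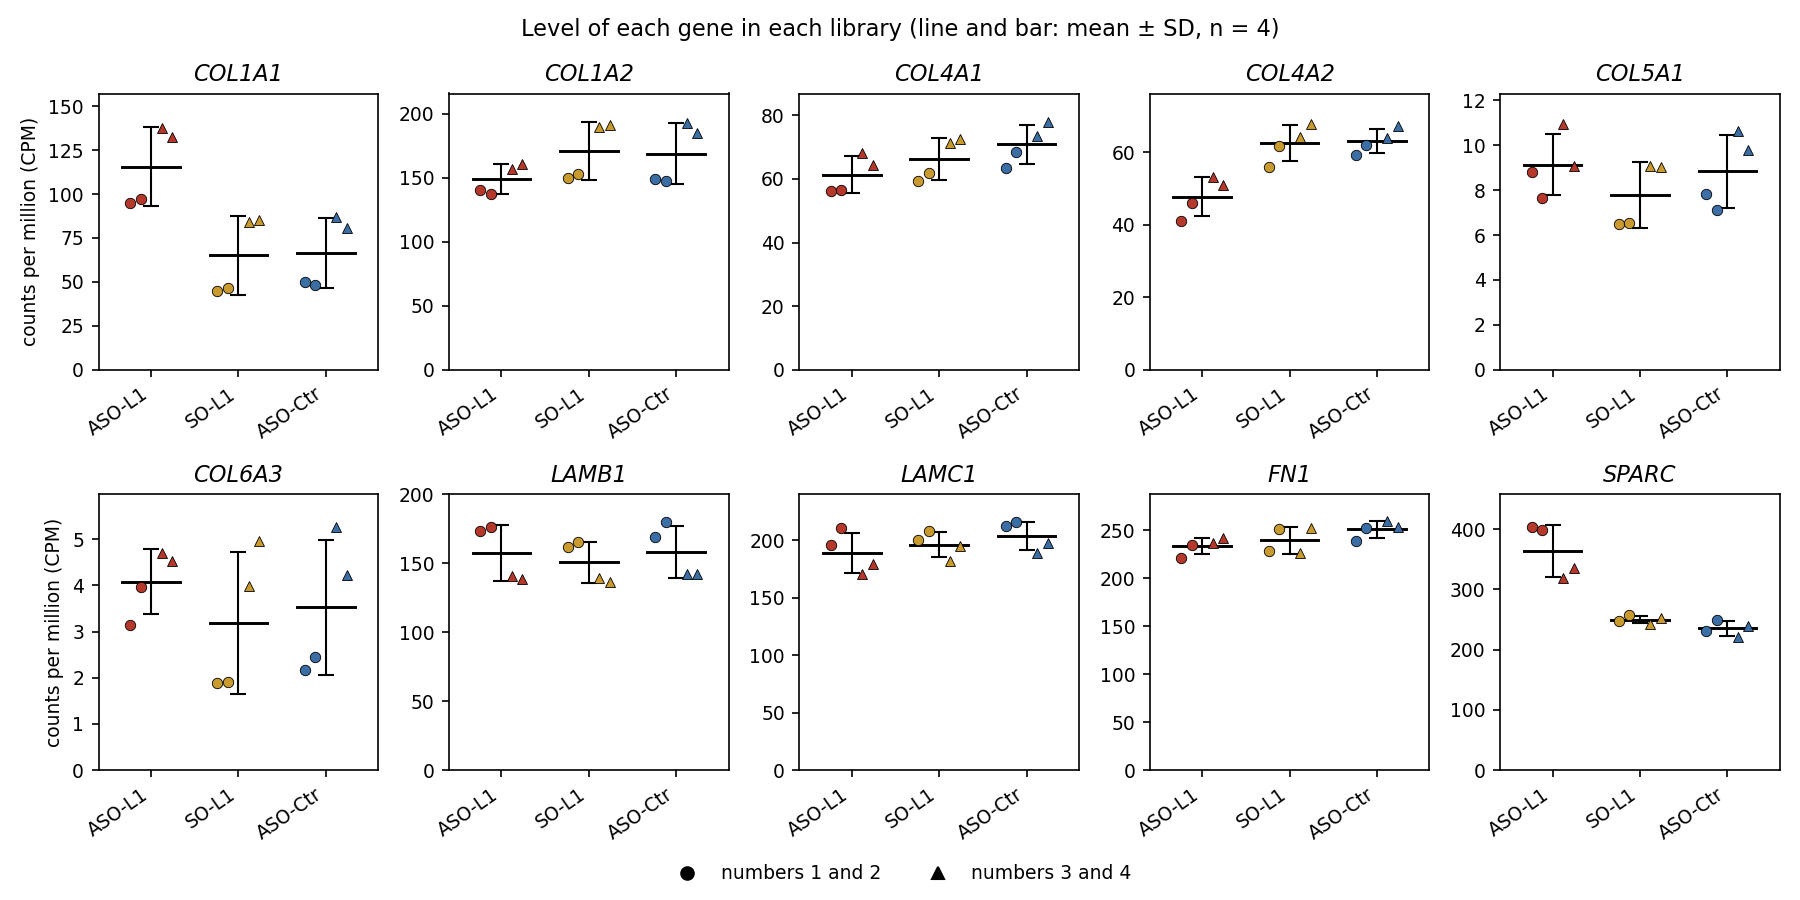
Level of each of the 10 genes in each library, in CPM on axes that start at 0, for ASO-L1, SO-L1 and ASO-Ctr from left to right; circles are numbers 1 and 2, triangles numbers 3 and 4, and lines with bars give the mean ± SD of 4 libraries. COL1A1 and SPARC are higher in all 4 ASO-L1 libraries than in all ASO-Ctr and SO-L1 libraries, and COL4A2 is lower in all 4. Within each group the triangles lie above the circles for COL1A1, COL1A2, COL4A1, COL4A2, COL5A1 and COL6A3 and below them for LAMB1 and LAMC1.

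The comparison of ASO-L1 with ASO-Ctr asks what targeting LINE1 RNA does to these genes. Of the 10, SPARC and COL1A1 rose and COL4A2 fell, at an adjusted p under 0.05 in edgeR's quasi-likelihood test with Benjamini-Hochberg adjustment over all genes. That is 3 of 10 where 22.3% of all 17228 genes passed, 11.6% higher and 10.7% lower. The median log2 change of the 10 genes was -0.05, against 0.00 over all genes tested. In the same 3 genes the libraries of the groups did not overlap, as in 25.5% of all genes. In bulk RNA, a change in the RNA per cell and a change in the share of cells that make it cannot be told apart.

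SPARC had 404, 398, 318 and 336 CPM in ASO-L1 libraries 1 to 4, against 232, 249, 221 and 239 CPM in ASO-Ctr libraries. The lowest ASO-L1 library was thus above the highest ASO-Ctr library, and the groups did not overlap. The log2 fold change was 0.63 ± 0.07 (SE; 1.55-fold, adjusted p = 4.88e-05, edgeR), higher in 4 of 4 same-number pairs. SO-L1 libraries had 248, 257, 242 and 252 CPM, and against them SPARC rose by 0.54 ± 0.07 (adjusted p = 1.73e-04, edgeR). SPARC kept its call under each alternative tried, with log2 changes against ASO-Ctr between 0.51 and 0.74.

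The SPARC promoter is shown because it belongs to the member with the smallest p. It is RefSeq's sequence of 250 bases before to 50 after the start, on the minus strand of GRCh38.p14 at chr5:151686866-151687165, with GGAGG on either strand in capitals. GGAGG stood in 76.7% of the 27305 promoters of the same length, and overlapping copies were allowed.
SPARC: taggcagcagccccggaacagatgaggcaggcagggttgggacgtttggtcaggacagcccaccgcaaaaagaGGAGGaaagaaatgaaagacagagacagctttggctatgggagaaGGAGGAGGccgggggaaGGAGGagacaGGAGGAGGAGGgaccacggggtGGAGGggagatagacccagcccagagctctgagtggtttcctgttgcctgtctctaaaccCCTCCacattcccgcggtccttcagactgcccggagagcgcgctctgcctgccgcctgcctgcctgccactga
The window held none of GGGCGG (in 44.6% of promoters), CCAAT (35.7%), TATAAA (12%), TGACGTCA (1.98%) or TGANTCA (7.76%), each searched on both strands. The last of these is the site of AP-1 factors and the one before it that of cyclic AMP response factors. GGAGG was added to the search after this sequence had been seen, and a match describes the letters only.

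COL1A1 had 94.8, 97.4, 138 and 133 CPM in ASO-L1 libraries 1 to 4, against 49.8, 48.4, 87.0 and 80.4 CPM in ASO-Ctr libraries. Every ASO-L1 library was above every ASO-Ctr library, and in both groups numbers 3 and 4 were the higher ones. The log2 fold change was 0.80 ± 0.26 (1.74-fold, adjusted p = 0.0425, edgeR), higher in 4 of 4 pairs, and with the number as a block it was 0.83 ± 0.08 (adjusted p = 2.65e-05). Against SO-L1 libraries, which had 44.9, 46.6, 84.0 and 85.3 CPM, COL1A1 rose by 0.82 ± 0.26 (adjusted p = 0.0408, edgeR). The call without the block was a narrow one. Against ASO-Ctr it was lost with no filter on low counts (adjusted p = 0.158). It was also lost once library 1 (0.111) or 2 (0.115) of the ASO-Ctr group was left out, and once library 2 (0.0513), 3 (0.115) or 4 (0.0975) of the ASO-L1 group was, at log2 changes between 0.67 and 0.87. Against SO-L1 it was lost with no filter (0.154), when library 1 (0.104) or 2 (0.116) of SO-L1 was left out, and when library 3 (0.111) or 4 (0.0934) of ASO-L1 was.

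COL1A2, the partner chain of COL1A1, gave no call without the block and a lower one with it. It had 140, 137, 157 and 161 CPM in ASO-L1 libraries 1 to 4, against 149, 148, 193 and 185 CPM in ASO-Ctr libraries. The groups overlapped, and ASO-L1 was lower in all 4 same-number pairs. The log2 change was -0.18 ± 0.11 (adjusted p = 0.272, edgeR), and -0.17 ± 0.03 with the number as a block, where it passed (adjusted p = 5.64e-05). SO-L1 libraries had 149.5, 153, 189.7 and 191 CPM, and the ASO-L1 values against them gave -0.20 ± 0.11 (adjusted p = 0.228, and 1.25e-05 with the block).

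Partner chains were then compared within each library as a ratio of their counts, which removes depth. COL1A1 stood at 0.677, 0.708, 0.877 and 0.824 reads per COL1A2 read in ASO-L1 libraries 1 to 4, against 0.335, 0.328, 0.451 and 0.434 in ASO-Ctr libraries. The lowest ASO-L1 ratio exceeded the highest ASO-Ctr ratio. The ratio in ASO-L1 was 2.0 times that in ASO-Ctr, a log2 difference of 1.0 (exact two-sided permutation p = 0.0286, the smallest that 70 splits of 4 against 4 allow; adjusted p = 0.0643 over the 9 ratio tests, which does not pass). It was 1.06 in numbers 1 and 2 alone and 0.94 in numbers 3 and 4 alone. Against SO-L1, whose ratios were 0.301, 0.304, 0.443 and 0.447, the log2 difference was 1.06 (exact permutation p = 0.0286, adjusted p = 0.0643). Between SO-L1 and ASO-Ctr it was -0.06 (exact permutation p = 0.600).

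**Figure D2:**
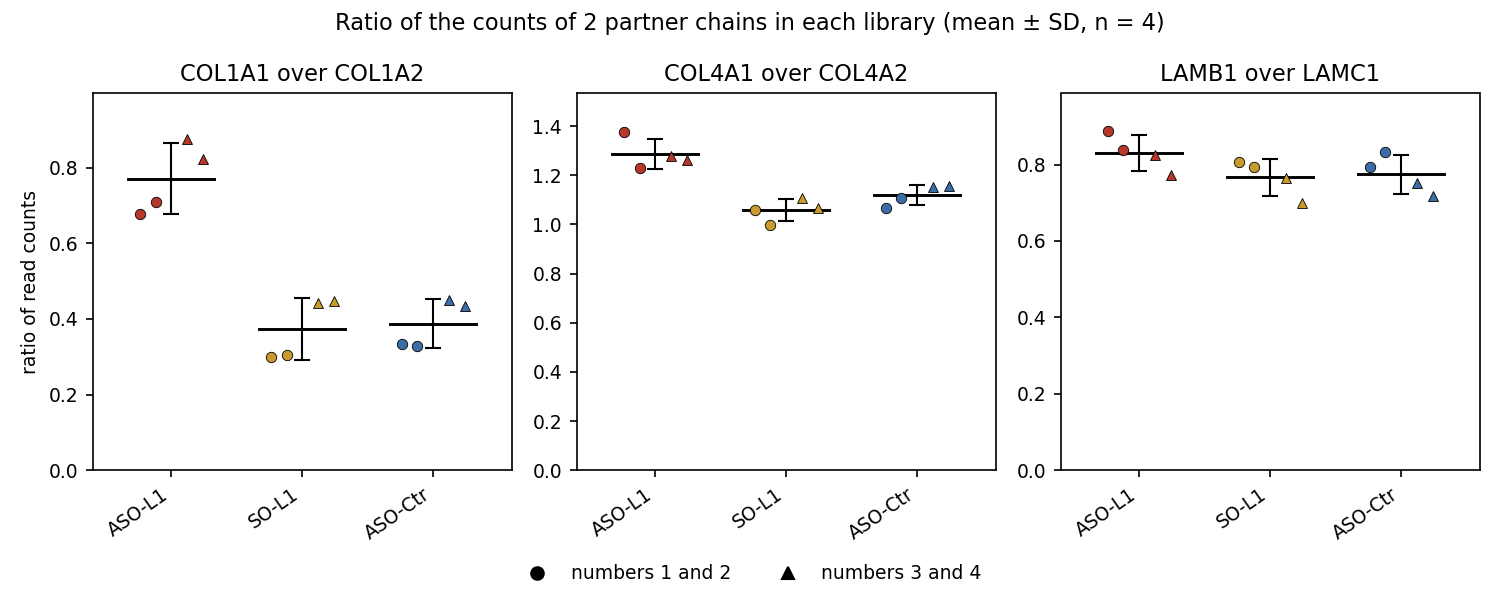
Ratio of the read counts of partner chains in each library, for ASO-L1, SO-L1 and ASO-Ctr from left to right; circles are numbers 1 and 2, triangles numbers 3 and 4, and lines with bars give the mean ± SD of 4 libraries. COL1A1 over COL1A2 averages 0.771 in ASO-L1, 0.374 in SO-L1 and 0.387 in ASO-Ctr libraries, COL4A1 over COL4A2 is higher in ASO-L1 by a smaller step, and LAMB1 over LAMC1 overlaps between the groups.

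The remaining fibrillar member, COL5A1, did not pass. It lay between 7.66 and 10.96 CPM in ASO-L1 libraries, between 6.47 and 9.08 CPM in SO-L1 libraries and between 7.14 and 10.6 CPM in ASO-Ctr libraries. The ranges overlapped throughout. The log2 change was 0.05 ± 0.16 against ASO-Ctr (adjusted p = 0.882, edgeR; 95% interval -0.30 to 0.39) and 0.22 ± 0.16 against SO-L1 (adjusted p = 0.376, and 0.0172 with the block, higher in 4 of 4 pairs).

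Its partner chains in type V collagen were named for that partnership and not by their values. COL5A3 rose to 15.5 ± 2.99 CPM in ASO-L1 libraries, against 6.97 ± 2.04 CPM in ASO-Ctr libraries (log2 change 1.15 ± 0.22, adjusted p = 0.00217, edgeR). COL5A2 averaged 18.7 CPM in ASO-L1 and 23.7 CPM in ASO-Ctr libraries. Its log2 change of -0.34 ± 0.33 did not pass in edgeR (adjusted p = 0.519), though it did in the blocked fit (7.77e-06). COL3A1, the chain of type III collagen, was near 0, with 7, 14 and 23 counts summed over the 4 libraries of ASO-L1, SO-L1 and ASO-Ctr, too few to test.

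COL4A2 was the member that fell. It had 41.0, 46.0, 53.2 and 51.1 CPM in ASO-L1 libraries 1 to 4, against 59.3, 62.1, 64.0 and 67.4 CPM in ASO-Ctr libraries. All 4 ASO-L1 libraries lay below the lowest ASO-Ctr library. The log2 fold change was -0.40 ± 0.08 (0.757-fold, adjusted p = 0.00337, edgeR), lower in 4 of 4 pairs. Against SO-L1, with 56.0, 61.9, 64.2 and 68.0 CPM, it was -0.39 ± 0.08 (adjusted p = 0.00482, edgeR), and both calls held under each alternative tried.

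COL4A1 had 56.3, 56.6, 68.1 and 64.5 CPM in ASO-L1 libraries 1 to 4, against 63.4, 68.6, 73.6 and 77.9 CPM in ASO-Ctr libraries. The groups overlapped, though ASO-L1 was lower in all 4 same-number pairs. The log2 change was -0.21 ± 0.09 (adjusted p = 0.112, edgeR) and passed with the block (-0.21 ± 0.04, adjusted p = 1.85e-05). Against SO-L1, with values between 59.4 and 72.6 CPM, it was -0.11 ± 0.09 (adjusted p = 0.424, and 0.0170 with the block).

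COL4A1 and COL4A2 lie head to head on chromosome 13 and share the region between their starts, which is shown because the ratio of their counts is compared next. In RefSeq's GRCh38.p14 table the starts are 127 bases apart, with COL4A1 read on the minus and COL4A2 on the plus strand, and their promoter windows of 300 bases overlap by 226. The COL4A2 window, chr13:110307034-110307333 on the plus strand, is given with the 128 bases from start to start in capitals.
COL4A2: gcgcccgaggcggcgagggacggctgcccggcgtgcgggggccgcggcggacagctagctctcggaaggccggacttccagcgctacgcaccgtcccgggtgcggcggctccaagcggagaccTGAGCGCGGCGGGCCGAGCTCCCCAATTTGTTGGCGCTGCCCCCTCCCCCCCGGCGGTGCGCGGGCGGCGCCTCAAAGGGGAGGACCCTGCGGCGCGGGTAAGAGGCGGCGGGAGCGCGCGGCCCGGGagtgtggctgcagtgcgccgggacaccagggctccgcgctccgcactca
The stretch between the starts held 1 CCAAT box (CCAAT or its reverse) and 1 GC box (GGGCGG or its reverse), and none of TATAAA, TGACGTCA or TGANTCA. The CCAAT match began 105 bases before the COL4A2 start and 26 before the COL4A1 start.

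COL4A1 stood at 1.37, 1.23, 1.28 and 1.26 reads per COL4A2 read in ASO-L1 libraries 1 to 4, against 1.07, 1.11, 1.15 and 1.16 in ASO-Ctr libraries. SO-L1 libraries had 1.06, 0.999, 1.11 and 1.07. The ASO-L1 ratios did not overlap those of either other group. The log2 difference was 0.20 against ASO-Ctr and 0.28 against SO-L1, each at an exact permutation p of 0.0286 (two-sided, adjusted p = 0.0643, which does not pass). SO-L1 against ASO-Ctr gave -0.08 (exact permutation p = 0.114), lower in 4 of 4 pairs. For ASO-L1 against ASO-Ctr it was 0.26 in numbers 1 and 2 alone and 0.14 in numbers 3 and 4 alone. Of the other type IV chains, COL4A4 fell against ASO-Ctr (-0.57 ± 0.13, adjusted p = 0.00826, edgeR) but gave -0.17 ± 0.14 against SO-L1 (adjusted p = 0.421), and SO-L1 against ASO-Ctr gave -0.39 ± 0.13 (adjusted p = 1). Against ASO-Ctr, COL4A5 (-0.36 ± 0.16, adjusted p = 0.137) and COL4A6 (-0.38 ± 0.14, adjusted p = 0.0726) passed with the block alone (adjusted p = 1.18e-06 and 2.64e-04). COL4A3 passed in neither fit (-0.50 ± 0.27, adjusted p = 0.215, edgeR, and 0.0961 with the block). COL4A3, COL4A5 and COL4A6 are named here as partner chains, outside the rule for named genes.

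LAMC1 had 196, 211, 171 and 179.5 CPM in ASO-L1 libraries 1 to 4, against 212, 216, 189 and 198 CPM in ASO-Ctr libraries. The groups overlapped and numbers 1 and 2 were the higher ones in each. The log2 change was -0.11 ± 0.07 (adjusted p = 0.301, edgeR), lower in 4 of 4 pairs, and passed with the block (-0.11 ± 0.03, adjusted p = 0.00332). Against SO-L1 it was -0.05 ± 0.07 (adjusted p = 0.646, and 0.137 with the block), higher in 1 of 4 pairs, so the blocked call was made against ASO-Ctr and not against SO-L1. LAMB1 lay between 139 and 176 CPM in ASO-L1 libraries, between 136 and 165 CPM in SO-L1 libraries and between 142 and 179.6 CPM in ASO-Ctr libraries. Its log2 change was -0.01 ± 0.10 against ASO-Ctr (adjusted p = 0.9749, edgeR; 95% interval -0.23 to 0.22), higher in 1 of 4 pairs, and the block did not bring it past the threshold (adjusted p = 0.853).

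The ratio of LAMB1 to LAMC1 averaged 0.831 ± 0.0468 in ASO-L1 libraries, 0.766 ± 0.0476 in SO-L1 libraries and 0.774 ± 0.0503 in ASO-Ctr libraries. The groups overlapped, although the ratio was higher in ASO-L1 in 4 of 4 pairs against either group. The log2 differences of 0.10 against ASO-Ctr and 0.12 against SO-L1 did not pass (exact permutation p = 0.171 and 0.114, adjusted p = 0.220 and 0.171).

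FN1 had 221, 235, 236 and 241 CPM in ASO-L1 libraries 1 to 4, against 238, 252, 259 and 253 CPM in ASO-Ctr libraries. The highest ASO-L1 library lay above the lowest ASO-Ctr library, and ASO-L1 was lower in 4 of 4 pairs. The log2 change was -0.10 ± 0.05 (adjusted p = 0.1502, edgeR), and passed with the block at the same size (adjusted p = 0.00697). Against SO-L1, which lay between 226 and 252 CPM, it was -0.04 ± 0.05 (adjusted p = 0.664, and 0.396 with the block).

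The FN1 promoter is shown beside these values for contrast with SPARC, since its window holds several of the motifs searched. It lies on the minus strand of GRCh38.p14 at chr2:215436019-215436318, with the GC boxes, the CCAAT box and the cyclic AMP response site, spelled out above for SPARC, in capitals on either strand.
FN1: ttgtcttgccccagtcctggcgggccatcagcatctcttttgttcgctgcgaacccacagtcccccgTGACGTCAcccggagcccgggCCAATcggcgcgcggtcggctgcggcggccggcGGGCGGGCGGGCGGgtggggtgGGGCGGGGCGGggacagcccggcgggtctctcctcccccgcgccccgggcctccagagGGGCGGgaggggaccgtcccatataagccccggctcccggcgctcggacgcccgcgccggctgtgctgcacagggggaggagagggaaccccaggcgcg
GC boxes, some of them overlapping, account for 6 matches. Among the 8 members with a promoter in the table, FN1 alone held TGACGTCA, 6 held GGGCGG and 3 held CCAAT, namely COL4A1, COL4A2 and FN1. COL1A1 and COL1A2 are the members not in the table.

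COL6A3 was the member with the fewest counts, between 38 and 135 per library. It had 3.15, 3.96, 4.70 and 4.52 CPM in ASO-L1 libraries 1 to 4, against 2.17, 2.46, 5.25 and 4.21 CPM in ASO-Ctr libraries. The groups overlapped, and all ASO-Ctr values of numbers 1 and 2 lay below all values of numbers 3 and 4. The log2 change was 0.21 ± 0.33 (adjusted p = 0.715, edgeR), and 0.24 ± 0.15 with the block (adjusted p = 0.186). Numbers 1 and 2 alone gave 0.62, which passed (adjusted p = 0.00805), and numbers 3 and 4 alone -0.04 (adjusted p = 0.884). Against SO-L1, with 1.88, 1.92, 4.00 and 4.96 CPM, it was 0.34 ± 0.33 (adjusted p = 0.534) and passed with the block (0.39 ± 0.15, adjusted p = 0.0392). The partner chains of type VI collagen are again named for that partnership. COL6A1 had a log2 change of 0.16 ± 0.06 (adjusted p = 0.0695, and 1.61e-04 with the block) and COL6A2 of -0.06 ± 0.08 (adjusted p = 0.658, edgeR).

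**Figure D3:**
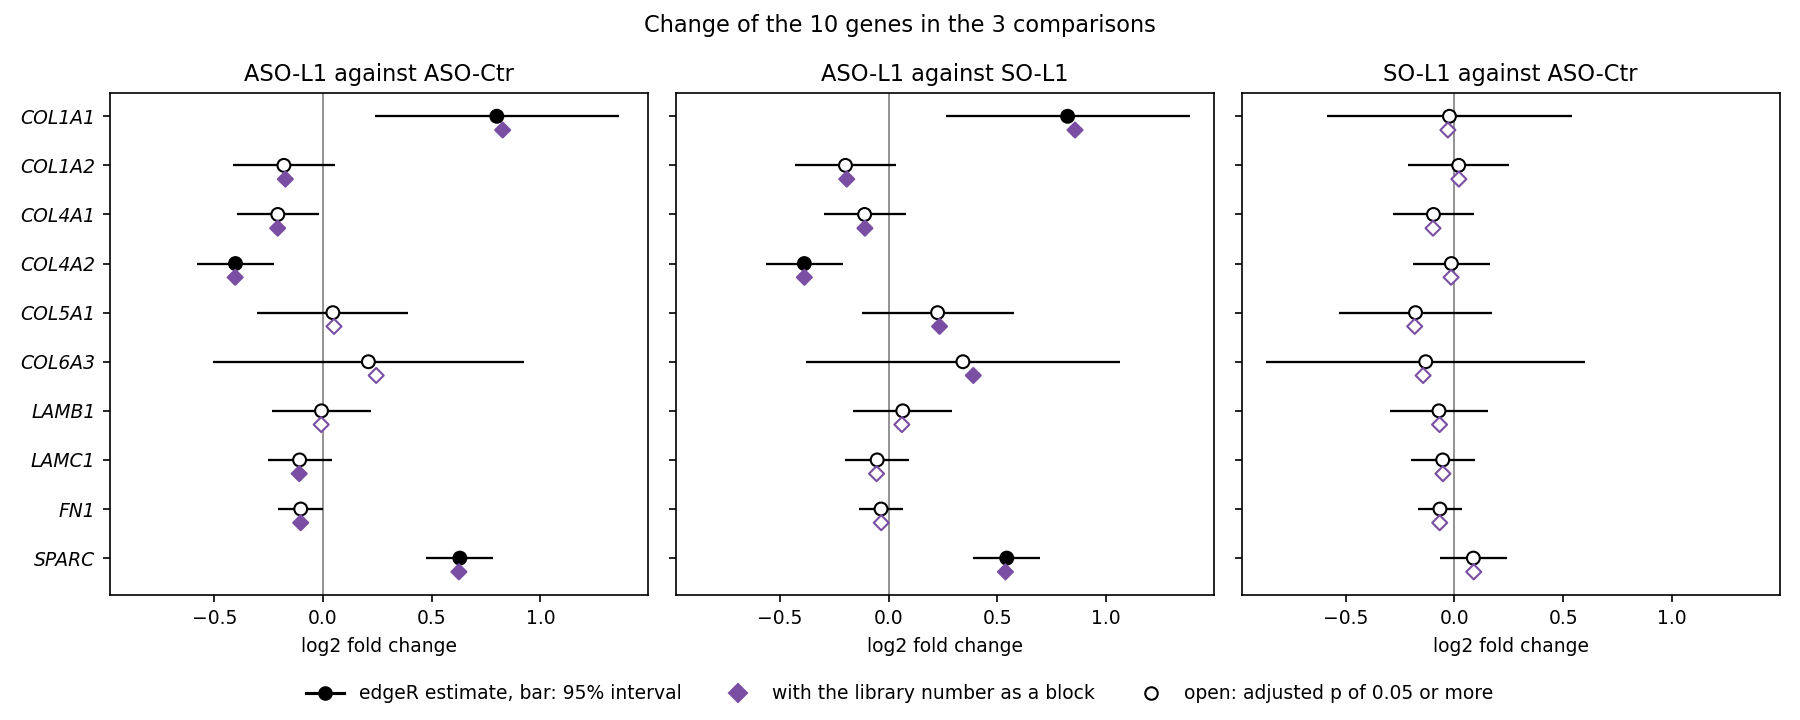
Log2 fold change of the 10 genes in each of the 3 comparisons, with the 95% interval of the edgeR fit (circles and bars) and the estimate with the library number as a block (diamonds); filled symbols have an adjusted p under 0.05. COL1A1, COL4A2 and SPARC are filled in both ASO-L1 comparisons, more diamonds than circles are filled there, and no symbol is filled for SO-L1 against ASO-Ctr.

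With the number as a block, 7 of the 10 genes passed in ASO-L1 against ASO-Ctr, 2 higher and 5 lower, where 45.0% of all genes passed. The genes added were COL1A2, COL4A1, FN1 and LAMC1, each lower in all 4 pairs by between 0.10 and 0.21 on the log2 scale. In ASO-L1 against SO-L1 the same 3 genes passed as against ASO-Ctr, where 20.3% of all genes did (10.7% higher and 9.64% lower), and 7 with the block (43.4% of all genes), 4 higher and 3 lower. Those 7 include COL5A1 and COL6A3, which did not pass against ASO-Ctr, and leave out FN1 and LAMC1, which did. These comparisons share the ASO-L1 libraries, so they are not independent of each other.

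SO-L1 against ASO-Ctr compares the sense oligos with the control oligos. None of the 10 genes passed in edgeR, none had an unadjusted p under 0.05, and none passed with the block, in DESeq2 or in limma-voom, where edgeR called 0.029% of all genes, that is 5, and the blocked fit 1.41%. In none of the 10 did the libraries of the groups stand clear of each other, which 2.3% of all genes did. In all 4 same-number pairs SPARC was higher and COL4A1, COL5A1, FN1, LAMB1 and LAMC1 were lower in SO-L1. Agreement of all 4 pairs thus also occurred between the sense and control oligos. The share of all genes with such agreement was not counted in any comparison, so pairs are given as description only. Log2 changes lay between -0.18 ± 0.16 for COL5A1 and 0.09 ± 0.07 for SPARC. The 95% interval of SPARC ran from -0.07 to 0.24, while that of COL6A3 ran from -0.87 to 0.60.

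In ASO-L1 against SO-L1 the authors' deposited table gives an adjusted p under 0.05 to COL1A2 as well, with a log2 change of -0.20 (adjusted p = 0.0138). The authors' deposited table gives 0.85 for COL1A1 (adjusted p = 5.97e-05), -0.39 for COL4A2 (1.49e-05) and 0.54 for SPARC (4.80e-06). What the authors corrected for is not given in the sources used here, beyond a batch correction named for their log2 values.

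The levels in numbers 3 and 4 differed from those in numbers 1 and 2, and the direction varied from gene to gene. COL1A1 was 1.41, 1.85 and 1.70 times as high in numbers 3 and 4 as in numbers 1 and 2 of ASO-L1, SO-L1 and ASO-Ctr. For COL6A3 these factors were 1.30, 2.36 and 2.05. COL1A2, COL4A1 and COL5A1 were also higher in numbers 3 and 4 in each group, by factors between 1.15 and 1.39. LAMB1 went the other way, with factors of 0.799, 0.843 and 0.815, as did LAMC1 with 0.862, 0.923 and 0.904. FN1 had factors between 0.997 and 1.05. COL4A2 had 1.20, 1.12 and 1.08, and SPARC 0.815, 0.979 and 0.957. These factors are descriptions without a test, since the split was noticed in the data and the labels do not say what they share.

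Whether the change with ASO-L1 against ASO-Ctr differed between numbers 1 and 2 and numbers 3 and 4 was tested by an interaction term. This grouping too was noticed in these data, and the p-values do not allow for that choice. COL1A1 was the member past the threshold, where 0.778% of all genes passed. Its log2 change came to 0.97 among libraries 1 and 2 and to 0.69 among libraries 3 and 4, a difference of -0.28 ± 0.07 for 3 and 4 against 1 and 2 (adjusted p = 0.0191, edgeR). It did not pass in DESeq2 (adjusted p = 0.132). Nor did it once library 2 (0.0797) or 3 (0.323) of ASO-Ctr, or library 2 (0.170) or 4 (0.162) of ASO-L1, was left out. The differences in these fits, DESeq2 included, lay between -0.28 and -0.22. SPARC had 0.74 and 0.51 (-0.23 ± 0.06, adjusted p = 0.0534), and passed with no filter on low counts (0.0365) and when library 2 (0.00304) or 3 (0.0339) of ASO-Ctr was left out. COL6A3 had 0.62 and -0.04, and the difference of -0.66 ± 0.24 did not pass (adjusted p = 0.264).

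**Figure D4:**
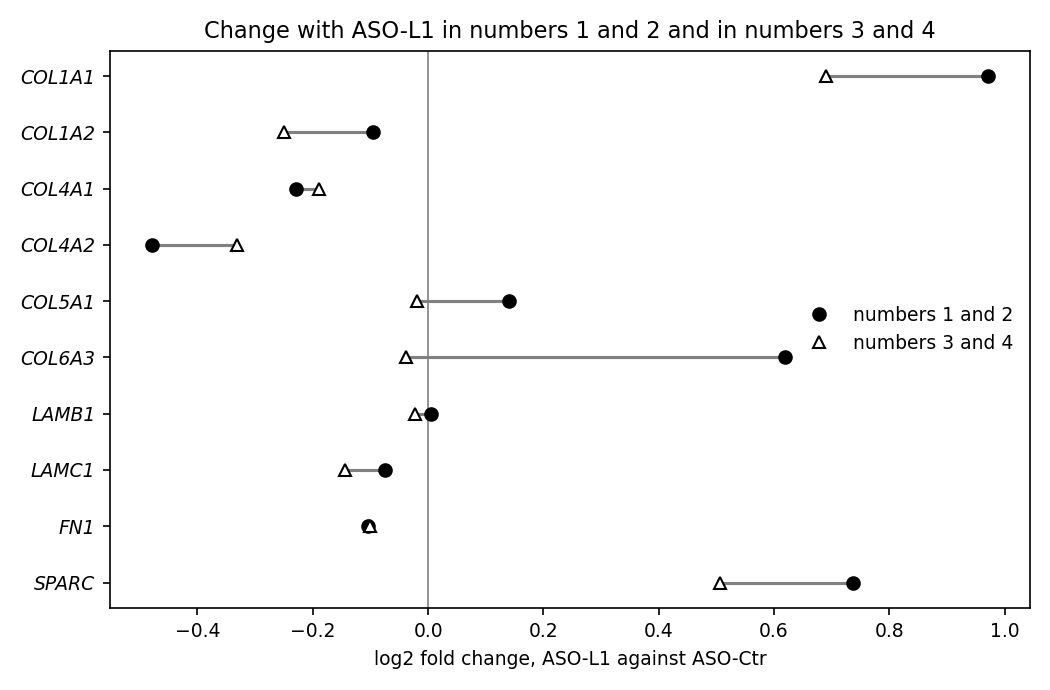
Log2 fold change of ASO-L1 against ASO-Ctr for each gene in numbers 1 and 2 (filled circles) and in numbers 3 and 4 (open triangles), joined by a line. COL1A1 is at 0.97 and 0.69, SPARC at 0.74 and 0.51, COL4A2 at -0.48 and -0.33, and COL6A3 at 0.62 and -0.04.

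The wider matrix gene lists were read as counts beside the shares of 11.6% higher and 10.7% lower over all genes. Of 32 other collagen chains tested, 1 rose, COL5A3, and 5 fell, with a median log2 change of -0.21 (5 higher and 13 lower with the block). The lower ones by the smallest p were COL11A1, a fibrillar chain of cartilage (-0.63 ± 0.09, adjusted p = 2.17e-04, edgeR), COL4A4 and COL27A1 (-0.41 ± 0.10, adjusted p = 0.00911). Against SO-L1 COL27A1 did not pass (-0.28 ± 0.10, adjusted p = 0.0637, edgeR, and 0.00735 with the block). COL11A1 stood at 14.5 ± 1.01 CPM in ASO-L1 libraries, 23.6 ± 2.22 CPM in SO-L1 libraries and 22.5 ± 2.14 CPM in ASO-Ctr libraries.

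Of 9 other laminin chains tested, 2 rose and 1 fell, with a median of 0.10 (4 higher and 3 lower with the block). LAMB3 rose to 33.3 ± 2.55 CPM in ASO-L1 libraries, against 4.69 ± 1.92 CPM in SO-L1 libraries and 3.66 ± 1.53 CPM in ASO-Ctr libraries (log2 change against ASO-Ctr 3.18 ± 0.29, adjusted p = 9.30e-06, edgeR). LAMA3 rose to 28 ± 12.1 CPM, against 7.11 ± 3.36 CPM in SO-L1 libraries and 6.42 ± 3.38 CPM in ASO-Ctr libraries (2.12 ± 0.43, adjusted p = 0.00375). These are chains of laminin-332, the laminin under stratified epithelia. LAMA2, the alpha chain of muscle laminin, fell by 0.69 ± 0.08 against ASO-Ctr (adjusted p = 4.65e-05, edgeR) and by 0.29 ± 0.08 against SO-L1 (adjusted p = 0.0192). In SO-L1 against ASO-Ctr it had -0.40 ± 0.08 (adjusted p = 0.106), which passed with the block (2.54e-06). LAMA5 and LAMA1, alpha chains that pair with LAMB1 and LAMC1, are named for that pairing. LAMA5 had a log2 change of 0.10 ± 0.15 (adjusted p = 0.701) and LAMA1 one of -0.15 ± 0.15 (adjusted p = 0.518, or 0.00133 in the blocked fit), neither past the threshold without the block.

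Of 11 linkers and proteoglycans of basement membranes, 1 rose and 3 fell, with a median of -0.10. TINAGL1 rose (1.48 ± 0.17, adjusted p = 5.12e-05, edgeR). PXDN, the peroxidase that crosslinks type IV collagen, fell to 253 ± 19.9 CPM in ASO-L1 libraries, against 331 ± 26.1 CPM in SO-L1 libraries and 339.6 ± 24.9 CPM in ASO-Ctr libraries (-0.43 ± 0.07, adjusted p = 9.34e-04). FRAS1 (-0.60 ± 0.08, adjusted p = 1.07e-04) and FREM2 (-0.41 ± 0.09, adjusted p = 0.00686), which take part in a complex that anchors epithelium to dermis, fell too.

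Of 28 other matrix glycoproteins tested, 5 rose and 2 fell, with a median of 0.00 (8 and 8 with the block). THBS3, a thrombospondin, rose by 1.03 ± 0.13 on the log2 scale (adjusted p = 1.04e-04, edgeR) and LTBP3 by 0.69 ± 0.15 (adjusted p = 0.00454), while LTBP1 fell by 0.34 ± 0.07 (adjusted p = 0.00392). LTBP1 and LTBP3 both hold latent TGF-beta in the matrix. ECM1, a secreted glycoprotein that binds matrix proteins, had the smallest p of the list, with 21.9 ± 1.51 CPM in ASO-L1 libraries against 1.64 ± 0.566 CPM in SO-L1 libraries and 1.63 ± 0.126 CPM in ASO-Ctr libraries. Its log2 change against ASO-Ctr was 3.75 ± 0.17 (adjusted p = 2.37e-08, edgeR).

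Of 30 genes of collagen processing and crosslinking tested, 3 rose and 3 fell, with a median of -0.07 (6 higher and 10 lower with the block). BMP1, which cleaves the C-terminal propeptide of fibrillar collagens, rose to 13.3 ± 1.35 CPM in ASO-L1 libraries, against 5.19 ± 0.761 CPM in SO-L1 libraries and 4.56 ± 0.595 CPM in ASO-Ctr libraries (1.54 ± 0.12, adjusted p = 3.06e-06, edgeR). PCOLCE, which enhances that cleavage, rose by 0.24 ± 0.06 (adjusted p = 0.0111). Against SO-L1 PCOLCE did not pass (0.15 ± 0.06, adjusted p = 0.0914, edgeR, and 0.0183 with the block). ADAMTS3 and ADAMTS14, which cleave the N-terminal propeptide, fell by 0.78 ± 0.12 and 0.57 ± 0.10 (adjusted p = 3.58e-04 and 0.00107). The collagen chaperone SERPINH1, named for its role, stood at 0.04 ± 0.05 (adjusted p = 0.637).

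Of 23 matrix receptors tested, 5 rose and 2 fell, with a median of 0.08 (9 and 5 with the block). CD44, a hyaluronan receptor, rose to 35.98 ± 6.03 CPM in ASO-L1 libraries, against 14.6 ± 0.658 CPM in SO-L1 libraries and 14.0 ± 1.13 CPM in ASO-Ctr libraries (1.36 ± 0.11, adjusted p = 2.88e-06, edgeR). The syndecan SDC4 (0.54 ± 0.06, adjusted p = 2.42e-05) and the fibronectin receptor chains ITGA5 (0.60 ± 0.08, adjusted p = 1.11e-04) and ITGAV (0.30 ± 0.05, adjusted p = 0.00160) rose as well. Laminin receptor chains, named after their values were seen, went both ways. ITGA6 fell by 0.44 ± 0.10 (adjusted p = 0.00512), its partner ITGB4 rose by 0.46 ± 0.12 (adjusted p = 0.0133), and ITGA3 had 0.47 ± 0.23 (adjusted p = 0.175), which passed with the block (1.98e-08). Against SO-L1 ITGB4 did not pass (0.30 ± 0.12, adjusted p = 0.0929, edgeR, and 0.0147 with the block).

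Of 27 matrix proteases and inhibitors tested, 11 rose and 3 fell, with a median of 0.21 (13 higher and 7 lower with the block). MMP9, a gelatinase, rose to 135 ± 4.00 CPM in ASO-L1 libraries, against 66.5 ± 9.81 CPM in SO-L1 libraries and 58.4 ± 6.28 CPM in ASO-Ctr libraries (1.20 ± 0.10, adjusted p = 3.87e-06, edgeR). MMP14, a membrane-bound collagenase, rose by 0.51 ± 0.05 (adjusted p = 2.63e-05, edgeR) and PLAU, a plasminogen activator, by 1.71 ± 0.18 (adjusted p = 2.83e-05). Inhibitors, named after their values were seen, went both ways. TIMP1 (0.57 ± 0.08, adjusted p = 2.27e-04, edgeR) and TIMP3 (1.64 ± 0.24, adjusted p = 3.25e-04) rose. TIMP2 (-0.36 ± 0.11, adjusted p = 0.0312) and RECK (-0.47 ± 0.08, adjusted p = 0.00145) fell. So did the protease HTRA1 (-0.60 ± 0.19, adjusted p = 0.0366, but 0.134 against SO-L1). Of 15 TGF-beta ligands, receptors and mediators tested, 2 rose and 0 fell, CTGF (0.45 ± 0.08, adjusted p = 0.00132) and SKI (0.26 ± 0.06, adjusted p = 0.0106), with a median of 0.05 (4 higher and 3 lower with the block).

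**Figure D5:**
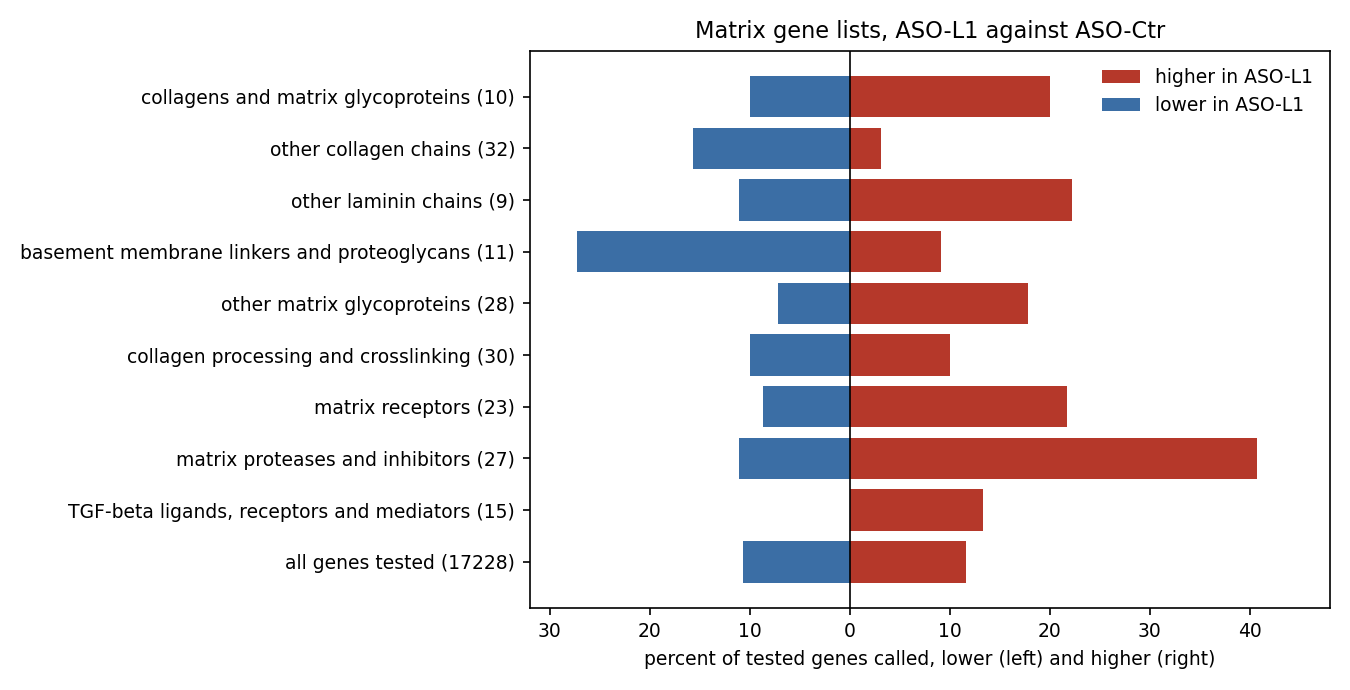
Share of the tested genes of each matrix list that passed in ASO-L1 against ASO-Ctr, lower to the left and higher to the right, with the number tested in brackets and all genes tested in the bottom row. The list of proteases and inhibitors has the longest bar to the right, with 11 of 27 genes, and the basement membrane linkers the longest to the left, with 3 of 11.

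Markers of fibroblasts and feeder cells were read beside the 10 genes, of which SPARC and COL1A1 rose while COL1A2 and FN1 did not. Of 16 such markers 10 were tested, of which 5 rose and 0 fell. In the blocked fit 7 were higher and 1 was lower. Summed over the list they came to between 940 and 975 CPM in ASO-L1 libraries, between 702 and 798 CPM in SO-L1 libraries and between 715 and 782 CPM in ASO-Ctr libraries. Without VIM the sums of the groups overlapped. They lay between 634 and 696 CPM in ASO-L1, between 569 and 680 CPM in SO-L1 and between 590 and 670 CPM in ASO-Ctr libraries. The 6 markers too low to test included FAP with 0 counts in all 12 libraries, DCN with 1 count in all, and LUM with 2, 0 and 3 counts in ASO-L1, SO-L1 and ASO-Ctr. COL3A1, also among them, had 7, 14 and 23 counts in the same order. The markers that rose were VIM (1.34 ± 0.10, adjusted p = 2.11e-06, edgeR), TWIST1 (1.93 ± 0.14), TWIST2 (0.81 ± 0.26, adjusted p = 0.0408), S100A4 (1.45 ± 0.17) and MFAP5 (1.20 ± 0.36, adjusted p = 0.0285). Against SO-L1 MFAP5 did not pass (1.03 ± 0.35, adjusted p = 0.0563, edgeR, and 6.96e-04 with the block). The tested markers that did not pass against ASO-Ctr without the block were COL6A1 (0.16), THY1 (0.12), FBLN1 (-0.01), COL6A2 (-0.06) and POSTN (-0.39). With the block COL6A1 and THY1 were higher and POSTN was lower. The part of cells with these markers in the changes of the 10 genes was not tested.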

How the data were processed

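The authors' deposited counts, given per gene symbol, are labelled raw counts and rmDup. Whether duplicate reads or duplicate gene rows were removed is not stated in the sources used here. The submitters' processing notes list build hg19, Subread 1.5.0 (featureCounts), TopHat2 2.0.13 and Trim Galore 0.4.0, in no stated order. The deposited log2 values are called batch corrected in their file's name, and the authors' result table gives log2 fold changes with p-values, per the file headers. One row without a gene name held at most 3 counts per library and was left out. Counts were fitted in R 4.3.3 with edgeR 4.0.16 (filterByExpr, least count 10 and least total 15; TMM; robust quasi-likelihood fit of all 12 libraries by group). The SE is the log2 change over the square root of F. CPM use effective library sizes. DESeq2 1.42.0, limma 3.58.1 (voom), other scaling, filter and library choices and the number as a block were alternatives; fits were tested on simulated data. After removal of group means, libraries of the same number correlated across genes at r between 0.450 and 0.561 in all 12 pairs, above the 0.1 that served to take numbers as pairs; different numbers within 1 and 2 or within 3 and 4 gave 0.4545 to 0.543, so the correlation shows this split and not pairing by number beyond it. The labels give no reason. Named genes are the 10 members, up to 4 per list with the smallest p, and the 2 tested genes most like each member; a gene that this rule picks is not reported here. The members and lists were chosen with earlier results of these data known. Ratios had 0.5 added to each count.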

Additional observations from a re-analysis of the deposited data

Results flagged for a closer look

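In edgeR with all libraries, the change of COL1A1 with ASO-L1 against ASO-Ctr differed between the numbers. This difference did not pass in DESeq2 (adjusted p = 0.132) or in several fits without a library, given above. On the log2 scale libraries 3 and 4 gave 0.69 and libraries 1 and 2 gave 0.97 (interaction -0.28 in edgeR, adjusted p = 0.0191), with the level in numbers 3 and 4 of ASO-Ctr 1.70 times that in numbers 1 and 2. What libraries of these numbers share is not labelled. Among the 30 sets of 4 CPM values, 10 genes in 3 groups, 0 held a library that stood apart from the others by Dixon's criterion.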

How the results depend on the processing

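SPARC and COL4A2 kept direction and call in both ASO-L1 comparisons under each alternative tried. COL1A1 kept its direction, and its lost calls are given with its values; the cause was not tested. With the replicate number as a block, 7747, 7469 and 243 genes passed in ASO-L1 against ASO-Ctr, ASO-L1 against SO-L1 and SO-L1 against ASO-Ctr, where 3847, 3497 and 5 passed without it, and 7, 7 and 0 members where 3, 3 and 0 passed. By list the block gave 18 other collagen chains (6 without it), 7 other laminin chains (3), 16 other glycoproteins (7), 16 processing genes (6), 14 receptors (7) and 7 TGF-beta genes (2). Numbers 1 and 2 alone gave 6045, 5863 and 124 genes with 5, 6 and 0 members; numbers 3 and 4 alone gave 6103, 5861 and 201 genes, with 7 members against ASO-Ctr. For SO-L1 against ASO-Ctr no filter gave 8 genes and DESeq2 52. For the difference between numbers 3 and 4 and numbers 1 and 2 DESeq2 gave 68 genes and 0 members, no filter 2 members, and leaving out a library between 74 and 253 genes and between 0 and 1 members. The 134 genes of that test became 253 without ASO-Ctr 1, 74 without ASO-Ctr 3, 82 without ASO-Ctr 4, 84 without ASO-L1 2 and 89 without ASO-L1 4. In the comparisons between groups RLE scaling, DESeq2 and limma-voom gave the members the same calls as edgeR with TMM. Leaving out the filter changed the call of COL1A1 only, in both ASO-L1 comparisons.

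Some log2 changes changed sign, and none passed with the changed sign. COL6A3 stood at 0.21 against ASO-Ctr over all libraries and passed in numbers 1 and 2 alone (0.62, adjusted p = 0.00805, edgeR). With numbers 1 and 2 alone LAMB1 stood at 0.0045 against ASO-Ctr; with numbers 3 and 4 alone COL5A1 stood at -0.016 and COL6A3 at -0.036 against ASO-Ctr, FN1 at 0.0087 against SO-L1, and COL1A1 at 0.010 and COL4A2 at 0.0026 in SO-L1 against ASO-Ctr. Leaving out each library in turn gave, against ASO-Ctr, between -0.056 and 0.14 for COL5A1 and between -0.073 and 0.060 for LAMB1, and against SO-L1 between -0.0011 and 0.12 for LAMB1. In SO-L1 against ASO-Ctr the ranges were -0.18 to 0.13 for COL1A1, -0.040 to 0.087 for COL1A2, -0.057 to 0.034 for COL4A2 and -0.41 to 0.12 for COL6A3. The ratio differences ranged from -0.16 to 0.034 for COL1A1 over COL1A2 and from -0.050 to 0.028 for LAMB1 over LAMC1. The differences between these numbers ranged from -0.024 to 0.091 for COL4A1, from -0.041 to 0.053 for FN1 and from -0.077 to 0.014 for LAMB1. In the ratio tests sign flips of same-number pairs cannot go below p = 0.125 (exact test), so that block could not pass. COL6A3, with 38 to 135 counts per library, is the member limited most by depth.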

Other observations

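Markers of other cell types were low in these libraries and changed in part. Of 6 trophectoderm and amnion markers tested out of 13 listed, 3 rose in ASO-L1 against ASO-Ctr and 0 fell, namely DLX3 (log2 change 2.63 ± 0.40, adjusted p = 4.45e-04, edgeR), GATA2 (1.03 ± 0.18) and KRT7 (0.95 ± 0.27, adjusted p = 0.0242). Against SO-L1 KRT7 did not pass (0.72 ± 0.27, adjusted p = 0.0772, edgeR, and 8.86e-05 with the block). DLX3 had 112, 17 and 16 counts summed over the libraries of ASO-L1, SO-L1 and ASO-Ctr. The list summed to between 13.7 and 20.5 CPM in ASO-L1 libraries, between 12.4 and 15.5 CPM in SO-L1 libraries and between 12.5 and 15.2 CPM in ASO-Ctr libraries. Of 6 mesoderm and EMT markers tested, 3 rose and 0 fell. SNAI1, a repressor of epithelial genes, rose to 10.7 ± 2.61 CPM in ASO-L1 libraries, against 3.50 ± 0.642 CPM in SO-L1 libraries and 3.43 ± 0.322 CPM in ASO-Ctr libraries (1.64 ± 0.18, adjusted p = 3.42e-05), with ZEB2 (1.26 ± 0.25) and MIXL1 (0.61 ± 0.11). That list summed to between 59.9 and 69.2 CPM in ASO-L1, between 47.3 and 53.5 CPM in SO-L1 and between 49.1 and 56.4 CPM in ASO-Ctr libraries. Of 9 markers of primitive and parietal endoderm tested, whose basement membrane is rich in type IV collagen, SPARC and laminin, GATA6 rose (3.58 ± 0.60, adjusted p = 9.16e-04) and PDGFRA fell (-0.70 ± 0.08, adjusted p = 7.94e-05). GATA6 had 126, 9 and 9 counts summed over the libraries of ASO-L1, SO-L1 and ASO-Ctr, so it was near 0 in both other groups. The sums of this list overlapped, between 81.5 and 115 CPM in ASO-L1, between 92.2 and 118.5 CPM in SO-L1 and between 96.5 and 128 CPM in ASO-Ctr libraries. LAMA1 made up most of them, at means of 67.2, 70.5 and 74.8 CPM in ASO-L1, SO-L1 and ASO-Ctr libraries. Of 8 pluripotency markers 0 rose and 4 fell, each by between 0.18 and 0.23 (0 and 8 with the block). In ASO-L1 against SO-L1 0 of them rose and 2 fell (0 and 6 with the block).

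The genes whose log2 CPM followed each member most closely over the 12 libraries were taken by Pearson's r, as a description without a test. The libraries share 3 oligo groups and the split by number, so r mostly reflects both. The closest were CLIC1 (r = 0.992) and ANXA3 (0.987) for SPARC, ZNF335 (0.991) and RXRA (0.989) for COL1A1, and CTBP2 (0.987) and LEPREL4 (0.983) for COL1A2. They were PTPRZ1 (0.977) and GRPR (0.976) for COL4A1 and APBB1 (0.976) and ZNF664 (0.969) for COL4A2. For LAMB1 they were OTX2 (0.981) and KCTD11 (0.9797) and for LAMC1 DNAJC13 (0.972) and KIF13A (0.965). For COL6A3 they were SETD1A (0.977) and TPI1P2 (0.976), for COL5A1 ZNF384 (0.969) and HAS3 (0.953), and for FN1 DTNBP1 (0.877) and FAM49A (0.868).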
